A study of Homo sapiens with 18 samples.

Results

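The response of MMP14-KO spheroids to a first day in collagen was measured by comparing 3 libraries taken after 24 h in a collagen hydrogel with 3 libraries of the same cells taken directly from hanging droplets. These 6 libraries, chosen by their genotype and treatment labels, are part of a series of 18 polyA RNA-seq libraries, sequenced as 151 bp pairs, from the MDA-MB-231 cell line, which came from a triple-negative breast cancer. The series holds 6 groups of 3: spheroids labelled Wildtype and spheroids labelled MMP14-KO, each sampled in droplets after 5 days of formation, after 24 h in collagen and after 48 h in collagen. Every sample pooled 100000 cells in spheroids of 2000 cells. The 2 groups compared share the cell line, the MMP14-KO label and the droplet stage, and differ in the collagen, the added day and the recovery step. Collagen samples were freed with collagenase at 2 mg/ml and 37 °C, whereas droplet samples were only washed off and spun down, so the effects of matrix, time and digestion cannot be told apart. The labels do not say how MMP14 was disrupted or whether the line is 1 clone, and nothing states that the replicates came from separate cultures, so p-values measure the spread between these samples, which may be technical.

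The product of MMP14 is a metalloproteinase held at the cell surface that cuts collagen fibrils, and tumour cells use it to open paths through dense matrix. Cells that cannot degrade collagen can still move by squeezing through gaps, which draws on contraction of the actin and myosin cortex. Contact with a stiff or fibrous matrix is also known to act on transcription through YAP-TAZ with TEAD factors, through MRTF with SRF, and through the AP-1 factors of the FOS and JUN families, which stress, growth factors and tissue dissociation induce as well.

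Levels are given as CPM, counts scaled for the size and composition of each library. Library totals were 24932580 to 29088883 counts in MMP14-KO droplets and 21486572 to 25390397 counts at 24 h. MMP14 itself, the targeted gene, stood at 159, 149 and 156 CPM in droplets and 166, 151 and 143 CPM at 24 h, and it did not pass the test (log2 fold change -0.01, SE 0.08, adjusted p = 0.919). In Wildtype spheroids its mean was 2045 CPM in droplets. Markers of a basal, triple-negative line were found, and some luminal markers were too. ESR1 was at or under 0.308 CPM and PGR at 0 in these 6 libraries. VIM was between 2243 and 3633 CPM, and CD44, EGFR, AXL, MSN, CAV1 and PLAU were each at 259 CPM or more. The luminal marker ERBB2 was detected at 65.5 to 78.7 CPM. Luminal keratins KRT8, KRT18 and KRT19 were at 447 to 519, 303 to 324 and 262 to 459.6 CPM. Other luminal markers were low, with GATA3 at 7.58 to 9.20 and EPCAM at 4.35 to 9.21 CPM. FOXA1 was at most 0.595 and CDH1 at most 0.702 CPM. The luminal list summed to 1346 to 1401 CPM in droplets and 1379 to 1538 CPM at 24 h. Its members did not follow this sum: of 13 tested, 1 was higher and 5 lower at 24 h, against 25.5% and 25.7% of all genes. Their median log2 fold change was -0.49. Among leukocyte markers CD3E was at 0 and PTPRC at most 1.03 CPM, while CD14 reached 29.5 CPM. Of 12 endothelial markers listed 6 were tested, and these summed to 193 to 207 CPM in droplets and 254 to 257 CPM at 24 h. Among the 6, 3 were higher and 0 lower. Of 12 fibroblast markers listed 7 were tested, with sums of 53 to 56.6 CPM and 63.4 to 67.2 CPM. Among the 7, 1 was higher and 2 lower, with a median log2 fold change of -0.475. Within these sums PECAM1 reached 34.1 CPM, COL1A1 34.9 CPM and PDGFRB 22.0 CPM. CDH5, at most 0.140 CPM, and FAP, at most 0.231 CPM, were under the filter and are not in the sums. The part of such markers in the results was not tested. The share of counts from mitochondrially encoded genes was 1.41 ± 0.395% (SD, n = 3) in droplets and 2.83 ± 0.138% at 24 h. The long noncoding share was 0.926 ± 0.0130% and 1.19 ± 0.0179%. For both shares the groups did not overlap and the exact two-sided permutation p was 0.10, the smallest that 3 against 3 allows.

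Of 17030 genes tested, 4335 were higher (25.5%) and 4370 lower (25.7%) at 24 h than in droplets at an adjusted p under 0.05. At a fold change of 2 or more as well, 1070 were higher (6.28%) and 554 lower (3.25%), so the larger changes were more often rises. Every adjusted p-value in this text is from edgeR's quasi-likelihood test with Benjamini-Hochberg adjustment over all genes tested. In 61.4% of genes the 3 values at 24 h lay entirely above or below the 3 droplet values. Because 51.1% of all genes passed, each gene group is read against these shares and against the median log2 fold change of all genes, which was 0.00. In the plot of gene groups, the largest shares of rises are in mitochondrially encoded mRNAs, replication genes and AP-1 subunits, and the largest shares of falls in interferon-stimulated, antigen presentation and unfolded protein response genes.

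**Figure D1:**
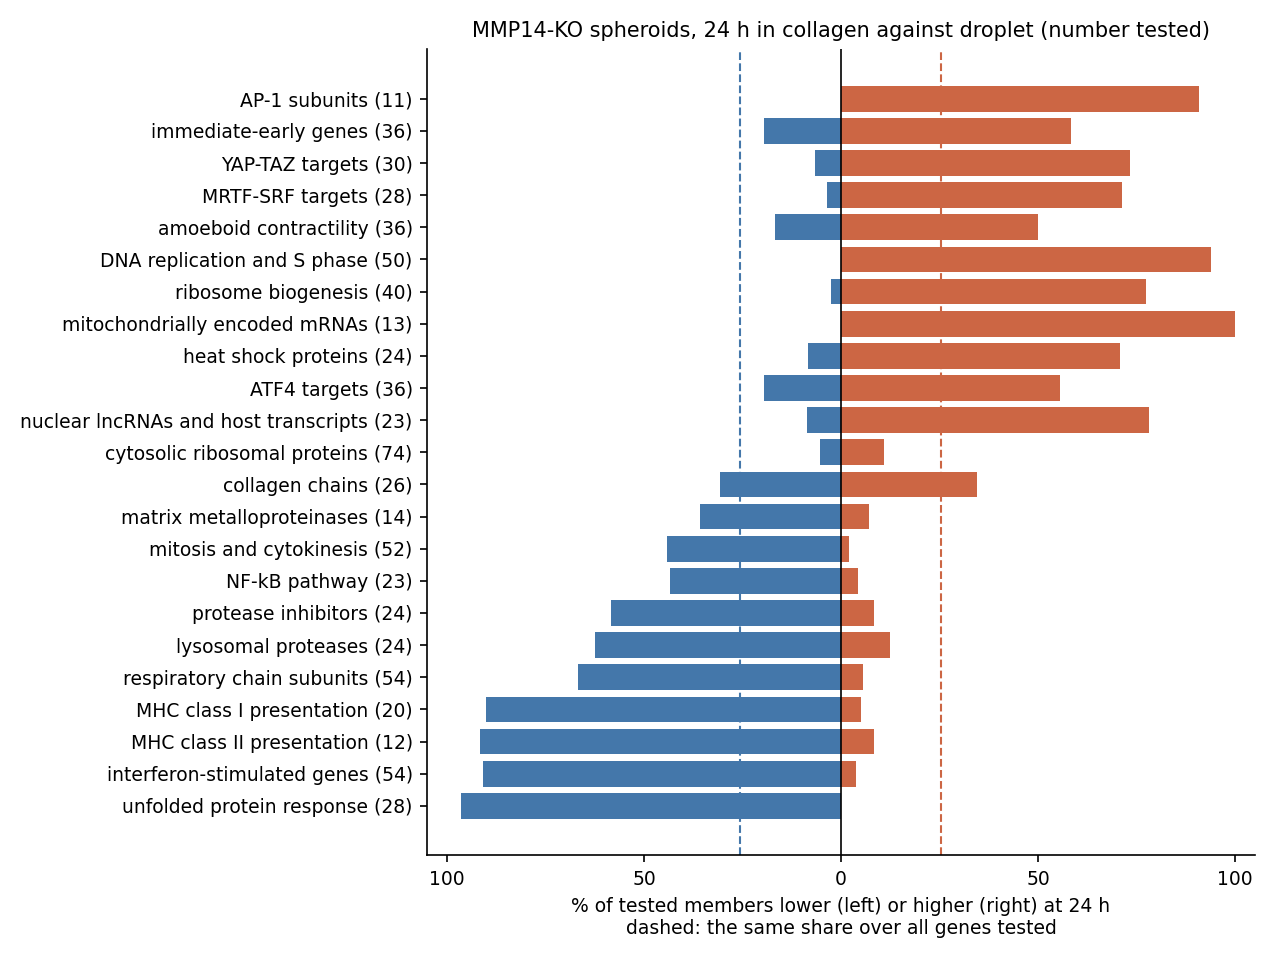
Share of the tested members of 23 gene groups that were higher (bars to the right) or lower (bars to the left) at 24 h in collagen than in droplets in MMP14-KO spheroids, in percent, at an adjusted p under 0.05. Dashed lines give the same share over all 17030 genes, 25.5% higher and 25.7% lower; all 13 mitochondrially encoded mRNAs were higher and 27 of 28 unfolded protein response genes lower.

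AP-1 and immediate-early genes were prominent among the largest rises; such genes are transcribed within minutes of a stimulus. FOSB, an AP-1 subunit, was at 1.15, 1.01 and 1.20 CPM in droplets and at 363, 360.3 and 409 CPM at 24 h, a 336-fold rise (log2 fold change 8.39, SE 0.16, adjusted p = 1.01e-15). FOS, its closest relative, went from 8.36, 9.31 and 7.65 CPM to 749.8, 860.2 and 927 CPM (log2 fold change 6.65, SE 0.13, adjusted p = 1.01e-15). For both genes the lowest library at 24 h stood far above the highest droplet library. FOSB lies against ERCC1 on the opposite strand, and as the sources do not give the strand setting of the counts, reads of the 2 genes cannot be told apart with certainty. ATF3, a stress-induced partner of JUN proteins, rose from 8.92, 9.10 and 8.30 CPM to 209, 249 and 261 CPM (log2 fold change 4.77, SE 0.14, adjusted p = 9.09e-13).

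Of 11 AP-1 subunits tested, 10 rose and 1 did not pass, with a median log2 fold change of 0.94. The JUN genes and FOSL1 moved less far than FOS and FOSB: JUN changed by 0.83, JUNB, which lies against HOOK2, by 1.57, JUND by 0.94 and FOSL1 by 1.30 on the log2 scale. JUN itself was at 157, 150.3 and 149 CPM in droplets and at 284, 256 and 271 CPM at 24 h, and the groups did not overlap. FOSL2 was the exception, at 0.08 (adjusted p = 0.334). Summed over the 11 subunits, the level was 729 to 745 CPM in droplets and 2717 to 2923 CPM at 24 h.

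Among 36 other immediate-early genes, 21 rose and 7 fell. The zinc finger factor EGR1 rose from 24.9, 23.9 and 25.0 CPM to 426, 349 and 319 CPM (log2 fold change 3.89, SE 0.13, adjusted p = 4.61e-12), and the nuclear receptor NR4A1 rose from 5.19, 3.71 and 2.77 CPM to 71.2, 95.4 and 108 CPM (log2 fold change 4.57, SE 0.32, adjusted p = 9.97e-08). Of 17 MAPK feedback inhibitors, a separate list, 6 rose and 5 fell, against 25.5% and 25.7% of all genes, with a median log2 fold change of 0.07. DUSP1, a phosphatase that inactivates MAP kinases, was among the 15 largest rises. SPRY2, DUSP7 and the low-level DUSP8 rose by 0.89, 0.73 and 1.72 on the log2 scale. In contrast SPRED2, SPRY1 and DUSP4, which also dampen this pathway, fell by 0.88, 0.76 and 0.46. DUSP1 went from 29.8, 28.9 and 25.0 CPM to 384, 438 and 479.9 CPM, and ZFP36, an immediate-early gene that promotes the decay of AU-rich mRNAs, from 16.4, 14 and 14.9 CPM to 186, 197 and 212 CPM. PPP1R15A, KLF2 and KLF6 rose 3.40-fold, 3.58-fold and 2.80-fold. MYC rose 1.92-fold. IER3 overlapped between the groups (log2 fold change 0.04, adjusted p = 0.810), and ID1, an inhibitor of helix-loop-helix factors, fell by 1.24 on the log2 scale.

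**Figure D2:**
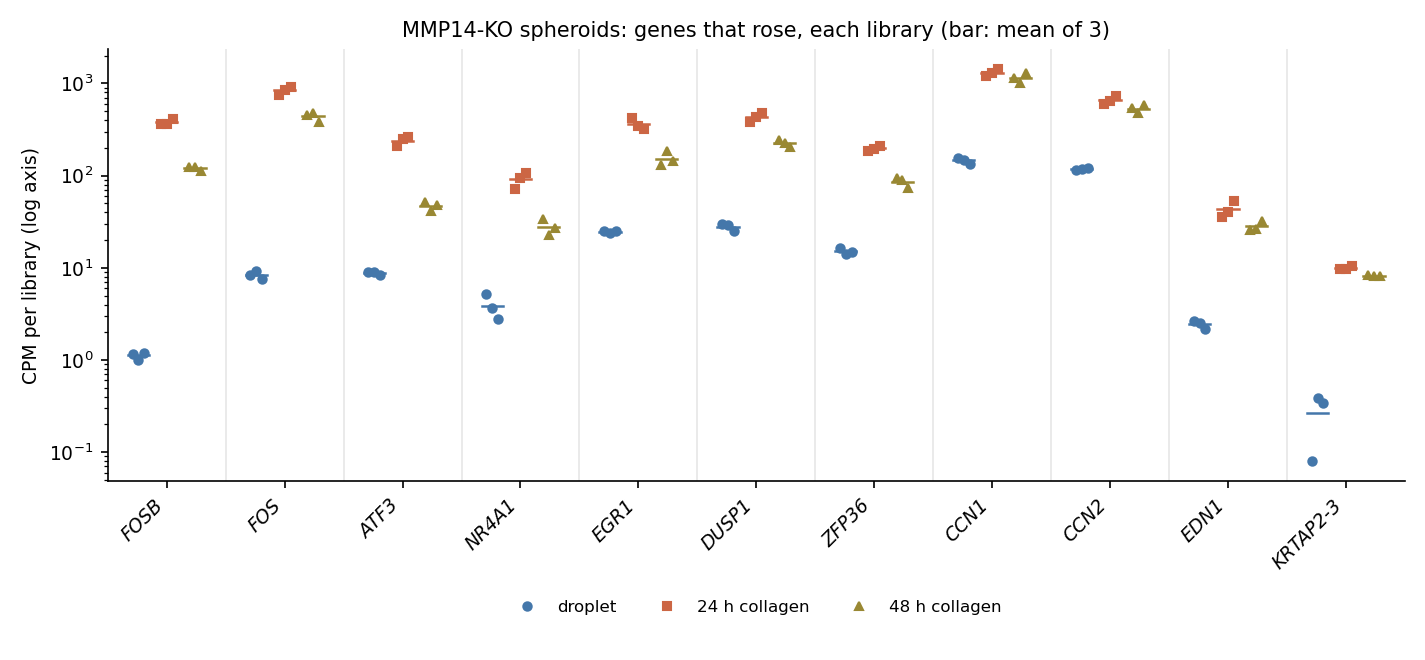
CPM (log axis) of 11 genes that rose, in each MMP14-KO library from droplets, 24 h and 48 h in collagen; points are libraries and bars the mean of 3. The FOSB libraries sit at 1.01 to 1.20 CPM in droplets and 360.3 to 409 CPM at 24 h, and the genes from FOSB to ZFP36 are lower at 48 h than at 24 h, while CCN1 and KRTAP2-3 stay near their 24 h level.

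The promoter of EGR1 shows the CArG boxes that SRF is known to bind, and it is printed because EGR1 belongs to both the growth-factor and the SRF response. The 250 bases before the RefSeq start, chr5:138465229-138465478 on the plus strand (GRCh38.p14), hold 2 such boxes, 105 to 96 and 83 to 74 bases before the start, given in capitals:
EGR1: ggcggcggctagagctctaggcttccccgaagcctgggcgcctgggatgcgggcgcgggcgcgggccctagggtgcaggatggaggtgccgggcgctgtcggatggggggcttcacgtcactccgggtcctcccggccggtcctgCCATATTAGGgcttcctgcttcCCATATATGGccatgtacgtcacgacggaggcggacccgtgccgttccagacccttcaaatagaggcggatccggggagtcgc
In windows from 250 bases before to 50 after the start, a CArG box on either strand was found in 3 of 27 immediate-early promoters (11.1%) and in 8 of 27 MRTF-SRF target promoters (29.6%), against 1.3% of all 27305 promoters. The CArG box was in 0 of the 8 AP-1 subunit promoters that matched RefSeq, of 11 subunits listed. Sites further from the start than these windows were not searched. The AP-1 letters TGANTCA were in 1 of these 8 and in 0 of 27 immediate-early promoters, against 7.8% of all promoters, and the CRE letters TGACGTCA in 2 of 8 (25.0%) and 1 of 27 (3.7%), against 2.0% of all. A match is a description of the letters and not a measured binding site.

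YAP-TAZ targets rose as a group: 22 of 30 tested were higher and 2 lower, with a median log2 fold change of 0.62. CCN1, a secreted matricellular protein, was at 155, 149.7 and 134 CPM in droplets and at 1198, 1295 and 1440.3 CPM at 24 h, a 8.96-fold rise (log2 fold change 3.16, SE 0.12, adjusted p = 7.72e-12). Its relative CCN2 went from 115, 118 and 121 CPM to 593, 652 and 731 CPM (log2 fold change 2.48, SE 0.08, adjusted p = 7.79e-15). ANKRD1, a nuclear and sarcomeric ankyrin-repeat protein, rose 3.01-fold, F3, the tissue factor that starts coagulation, 4.25-fold, and AXL, a receptor tyrosine kinase, 2.19-fold. None of these 5 genes overlapped between the groups, a separation also seen in 61.4% of all genes. The kinase gene NUAK2 and the YAP-binding AMOTL1 were the members that fell, by 0.71 and 0.25 on the log2 scale.

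The CCN2 promoter is shown because its TEAD letters recur within a short stretch. The window chr6:131951373-131951622 on the minus strand (GRCh38.p14) holds CATTCC 3 times, always on the opposite strand and so read as GGAATG, at 169 to 164, 104 to 99 and 95 to 90 bases before the start, in capitals:
CCN2: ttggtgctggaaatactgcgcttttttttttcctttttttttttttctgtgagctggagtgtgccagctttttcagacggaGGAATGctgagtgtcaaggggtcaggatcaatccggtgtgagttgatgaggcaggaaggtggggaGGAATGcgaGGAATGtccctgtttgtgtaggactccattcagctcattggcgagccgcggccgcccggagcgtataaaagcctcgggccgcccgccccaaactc
CATTCC on either strand was present in 7 of 20 YAP-TAZ target promoters that matched RefSeq (35.0%) and in 14% of all promoters.

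Actin genes regulated by MRTF-SRF rose less far. Of 28 tested, 20 were higher and 1 lower, with a median log2 fold change of 0.22. FLNC, an actin crosslinker, went from 40.3, 43.6 and 39.1 CPM to 172, 176 and 179 CPM (log2 fold change 2.10, SE 0.09, adjusted p = 3.22e-13). TPM1, a tropomyosin, rose 1.85-fold and ACTB, cytoplasmic beta-actin, 1.50-fold. ACTA2, smooth muscle actin, was the member that fell, from 2.02, 1.44 and 2.25 CPM to 1.36, 0.962 and 0.826 CPM, and it lies against FAS and STAMBPL1 on the opposite strand.

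The contractility genes tied to amoeboid movement rose more often than they fell, with 18 of 36 higher and 6 lower and a median log2 fold change of 0.24. In Wildtype spheroids 22 of the 36 were higher and 5 lower, with a median of 0.32. The difference between the genotypes passed for 1 of them, DIAPH3, which rose less in MMP14-KO. MYL9, the myosin light chain that ROCK signalling switches on, was at 43.7, 46.2 and 42.4 CPM in droplets and 77.9, 65.8 and 70.2 CPM at 24 h (log2 fold change 0.69, SE 0.08, adjusted p = 1.82e-07). The heavy chain gene MYH9 rose 1.25-fold. RND3, an atypical GTPase that opposes ROCK1, rose 2.62-fold. RND1, a relative of RND3, fell by 1.16 on the log2 scale.

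Matrix metalloproteinases did not rise as a group: of 14 tested, 1 was higher and 5 lower, against 25.5% and 25.7% of all genes. Without 24 h replicate 2, 3 were lower. The median log2 fold change was -0.23. MMP1, the interstitial collagenase, was at 362, 389 and 339.6 CPM in droplets and 434, 467 and 468 CPM at 24 h, groups that did not overlap but whose difference did not pass (log2 fold change 0.33, SE 0.18, adjusted p = 0.149). MMP13, a collagenase at low level, fell from 4.68, 4.83 and 2.97 CPM to 1.50, 0.962 and 0.908 CPM (adjusted p = 4.61e-06). MMP19 was the member that rose, 1.59-fold, and it lies against TMEM198B on the opposite strand. In contrast, 3 secreted ADAMTS proteases rose strongly: ADAMTS1 went from 44.2, 47.4 and 34.8 CPM to 173, 173 and 191 CPM, and ADAMTS6 from 3.57, 3.47 and 3.89 CPM to 22.5, 24.9 and 25.6 CPM. ADAMTS16 rose by 2.11 on the log2 scale. Over the 23 ADAM and ADAMTS genes tested, however, 6 were higher and 7 lower (4 without droplet replicate 1), against 25.5% and 25.7% of all genes.

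Most protease inhibitors and lysosomal proteases fell. Of 24 inhibitors tested 14 were lower and 2, TIMP2 and TIMP4, higher (1 without droplet replicate 1), with a median log2 fold change of -0.40. TIMP3, an inhibitor bound to matrix, went from 2842, 2985 and 2618 CPM to 2174, 2196 and 2190.0 CPM (log2 fold change -0.36, SE 0.11, adjusted p = 0.0106). Of 24 lysosomal proteases and related proteins 15 were lower and 3 higher, with a median of -0.28. The cathepsin genes CTSS and CTSL fell by 1.47 and 0.91 on the log2 scale, from 32.2, 30.0 and 32.2 CPM to 12.8, 11.4 and 9.99 CPM and from 185, 191 and 210.4 CPM to 102, 105 and 104 CPM. Of 10 genes of the plasminogen system 5 rose and 2 fell. SERPINE2, a thrombin and urokinase inhibitor, fell from 406, 505 and 265 CPM to 132, 114 and 114 CPM (log2 fold change -1.71, SE 0.24, adjusted p = 6.93e-05).

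Collagen chains went in both directions, as all genes did: 9 of 26 tested were higher and 8 lower, against 25.5% and 25.7% of all genes. COL7A1, the anchoring fibril collagen, rose from 62.6, 55.4 and 54.3 CPM to 161, 162 and 184 CPM (log2 fold change 1.56, SE 0.11, adjusted p = 1.51e-08), and COL12A1 and COL1A1 rose 2.74-fold and 2.67-fold. COL6A1, a beaded-filament collagen chain, fell from 794, 753 and 757 CPM to 518, 508 and 464 CPM. Laminins and matrix glycoproteins were also mixed: of 38 tested, 9 were higher and 13 lower, against 25.5% and 25.7% of all genes. Their median log2 fold change was -0.19, with a range from -3.55 for SPP1 to 2.88 for FBN2. FN1, fibronectin, fell from 4008, 4165 and 4639.8 CPM to 2671, 3199.6 and 3144 CPM (log2 fold change -0.51, SE 0.13, adjusted p = 0.00364). Of the integrins and collagen receptors, 4 of 23 rose and 7 fell, beside the same shares of all genes. The collagen-binding alpha chain gene ITGA1 fell from 685, 743 and 625 CPM to 209.8, 255 and 244 CPM (log2 fold change -1.53, SE 0.22, adjusted p = 7.48e-05), and it contains PELO on the same strand. ITGB1, its beta chain, rose 1.17-fold.

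Other genes among the 15 largest rises belong to none of these groups. EDN1, the vasoconstrictor peptide endothelin, went from 2.62, 2.52 and 2.15 CPM to 35.9, 40.8 and 52.7 CPM (log2 fold change 4.15, SE 0.17, adjusted p = 1.13e-11). KRTAP2-3, a hair keratin-associated protein whose near-identical neighbours can share its reads, went from 0.0793, 0.385 and 0.342 CPM to 9.73, 9.66 and 10.4 CPM (log2 fold change 5.14, SE 0.28, adjusted p = 1.30e-11). PDE1C, a calmodulin-dependent phosphodiesterase, rose 10.1-fold, and KISS1, the precursor of kisspeptin peptides, 10.0-fold. MIR23AHG, a miRNA host transcript, rose from 12.1, 9.10 and 10.0 CPM to 388, 441 and 438 CPM, with ZSWIM4 on the opposite strand. It was among 18 of 23 nuclear lncRNAs and host transcripts that rose, with 2 lower, H19 and NORAD. NEAT1, the scaffold of paraspeckles, went from 264, 175 and 177 CPM to 1108, 1031 and 1003 CPM (log2 fold change 2.35, SE 0.27, adjusted p = 9.36e-06), and MALAT1 rose 2.82-fold. These transcripts rose together with the long noncoding share of counts given above, and the part of RNA quality or of nuclear RNA in this was not tested.

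Cell cycle genes moved in opposite directions in MMP14-KO spheroids. Of 50 DNA replication and S-phase genes, 47 rose and 3 did not pass, with a median log2 fold change of 0.84. E2F1, a factor that drives S-phase entry, went from 33.6, 33.5 and 34.2 CPM to 83.4, 82.3 and 92.2 CPM (log2 fold change 1.35, SE 0.10, adjusted p = 2.75e-09). MCM3, a subunit of the replicative helicase, rose from 122, 123 and 130.0 CPM to 241, 237 and 257 CPM, and CDC6, which loads that helicase, from 40.1, 40.0 and 36.3 CPM to 82.7, 84.1 and 91.4 CPM. In 49 of the 50 genes the groups did not overlap, against 61.4% of all genes in either direction. TK1 and RRM2, which supply nucleotides, were among these 3, at 0.27 and 0.35 on the log2 scale.

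Of 52 mitosis and cytokinesis genes, 23 fell and 1, PLK4, rose, with a median log2 fold change of -0.30. KIF20A, a kinesin of the central spindle, went from 81.4, 57.3 and 93.7 CPM to 23.2, 27.6 and 25.5 CPM (log2 fold change -1.60, SE 0.17, adjusted p = 3.28e-06), and it lies against BRD8 and CDC23. PLK1, the main mitotic polo kinase, went from 53.5, 40.5 and 63.0 CPM to 24.1, 24.0 and 22.8 CPM (log2 fold change -1.15, SE 0.16, adjusted p = 3.53e-05). CCNB1, the mitotic cyclin, fell from 126, 93.8 and 145 CPM to 56.3, 58.3 and 63.9 CPM. The droplet libraries were more spread than those at 24 h, with replicate 2 the lowest for each of the 3 genes. Without droplet replicate 3, 15 of the 52 passed as lower. CDKN2C, an inhibitor of the G1 kinases CDK4 and CDK6, fell 2.61-fold, and CCND1, their cyclin, which lies against LTO1, rose 1.58-fold.

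The promoters of MCM3 and PLK1 are shown for the letters that mark the G1-S and G2-M expression classes of the cell cycle. The MCM3 window, chr6:52284743-52284992 on the minus strand (GRCh38.p14), holds the E2F letters TTTCCCGC at 174 to 167 bases before the start, and the PLK1 window, chr16:23678639-23678888 on the plus strand, holds the CHR letters TTTGAA of mitotic genes at 29 to 24 bases before the start, both in capitals:
MCM3: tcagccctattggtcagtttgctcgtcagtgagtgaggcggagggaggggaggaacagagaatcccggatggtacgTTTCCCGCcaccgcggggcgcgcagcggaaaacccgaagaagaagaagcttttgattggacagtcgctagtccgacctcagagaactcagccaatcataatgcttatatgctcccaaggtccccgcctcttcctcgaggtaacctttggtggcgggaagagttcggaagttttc
PLK1: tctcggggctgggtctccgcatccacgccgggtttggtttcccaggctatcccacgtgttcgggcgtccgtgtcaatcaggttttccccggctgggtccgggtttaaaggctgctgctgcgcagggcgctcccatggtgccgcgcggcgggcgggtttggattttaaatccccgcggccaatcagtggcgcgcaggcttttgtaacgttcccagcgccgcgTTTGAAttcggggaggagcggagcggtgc
TTTCCCGC was found in 11 of 42 replication promoters (26.2%) against 1.7% of all, and TTTGGCGC, the other E2F form searched, in 10 of 42 (23.8%) against 0.7%. TTTGAA was found in 31 of 44 mitosis promoters (70.5%) against 15.4% of all.

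**Figure D3:**
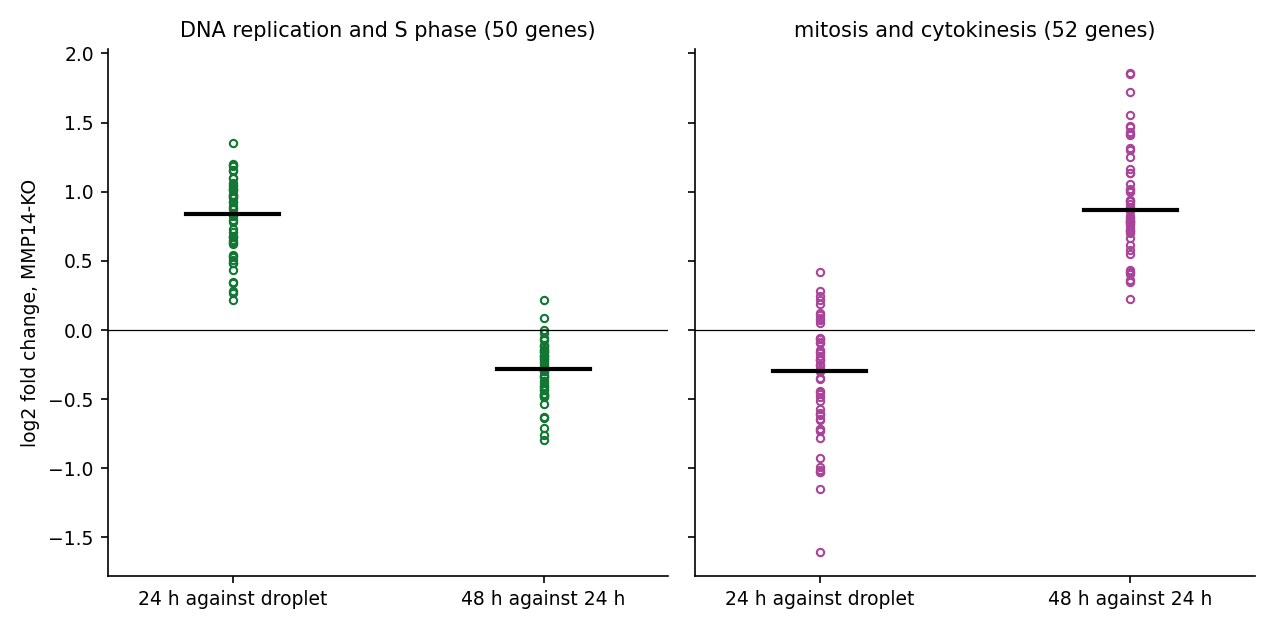
Log2 fold change in MMP14-KO spheroids of 50 replication genes (left panel) and 52 mitosis genes (right panel), at 24 h against droplets and at 48 h against 24 h; circles are genes and black bars medians. Replication genes have a median of 0.84 at 24 h and mitosis genes one of 0.87 from 24 h to 48 h; both comparisons share the 24 h libraries, so the positions of a group in them are not independent.

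Genes for making ribosomes rose, while most ribosomal protein genes did not pass. Of 40 ribosome biogenesis genes 31 rose and 1 fell, with a median log2 fold change of 0.34. NOP56, a core protein of box C/D snoRNPs, went from 119.8, 118 and 124 CPM to 230.2, 221 and 236 CPM (log2 fold change 0.93, SE 0.09, adjusted p = 1.35e-07). Of 74 cytosolic ribosomal protein genes 8 rose (3 without 24 h replicate 3) and 4 fell, with a median of -0.02. In a fit of only the groups compared 16 rose and 17 fell. RPLP0, a protein of the ribosomal stalk, was at 1436, 1443 and 1583 CPM in droplets and 1551, 1539 and 1561 CPM at 24 h, values that overlapped (adjusted p = 0.480). Ribosomal protein genes have many processed pseudogenes that can share their reads.

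All 13 mitochondrially encoded mRNAs rose, with a median log2 fold change of 1.03, whereas 36 of 54 nuclear-encoded respiratory chain subunits fell and 3 rose, with a median of -0.21. MT-CO1, a subunit of cytochrome oxidase, went from 4239, 2427 and 3722 CPM to 6888, 6381 and 7234 CPM (log2 fold change 0.98, SE 0.19, adjusted p = 8.30e-04). MT-ND2, a subunit of complex I, went from 1091, 570.3 and 954 CPM to 2134, 1943 and 2184 CPM. Droplet replicate 2 was the lowest library for both genes, and its mitochondrial share of counts was 0.971% against 1.51% and 1.74% in the other droplet libraries. The 13 of 13 held without any 1 of the 6 libraries. NDUFA2, a nuclear-encoded complex I subunit that lies against IK and TMCO6, fell by 0.62 on the log2 scale. The part of RNA quality in the mitochondrial rise was not tested.

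Interferon-stimulated and antigen presentation genes fell together. Of 54 interferon-stimulated genes 49 fell and 2, STAT2 and DDX60L, rose, with a median log2 fold change of -0.78. CXCL10 and CXCL11, chemokines that attract T cells, went from 26.0, 27.9 and 19.6 CPM to 3.82, 5.16 and 3.63 CPM (log2 fold change -2.53, SE 0.32, adjusted p = 1.65e-05) and from 34.5, 32.0 and 34.6 CPM to 5.91, 8.78 and 7.06 CPM (log2 fold change -2.21, SE 0.25, adjusted p = 5.82e-06). OAS1, a sensor of double-stranded RNA, fell from 31.9, 32.4 and 32.9 CPM to 13.3, 14.1 and 11.4 CPM. MX1, an antiviral GTPase, fell 2.42-fold and IFITM3, a membrane protein that blocks viral entry, 1.75-fold.

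The CXCL10 promoter is shown because CXCL10 is an interferon target among the 15 largest falls. The window chr4:76023498-76023747 on the minus strand (GRCh38.p14) holds the interferon response letters GAAANNGAA at 221 to 213 bases before the start, in capitals:
CXCL10: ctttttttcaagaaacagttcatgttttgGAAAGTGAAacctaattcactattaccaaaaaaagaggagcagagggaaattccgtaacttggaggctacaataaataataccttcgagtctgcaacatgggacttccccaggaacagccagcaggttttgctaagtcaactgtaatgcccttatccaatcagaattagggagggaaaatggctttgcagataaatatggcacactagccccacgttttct
GAAANNGAA was found in 30 of 44 interferon-stimulated promoters (68.2%) and in 9 of 17 MHC class I presentation promoters (52.9%), against 8.3% of all promoters.

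Of 20 genes of MHC class I presentation 18 fell, with a median log2 fold change of -0.59, and 1, the peptide transporter gene TAP2, rose by 0.15, though not without droplet replicate 1. B2M, the light chain of class I molecules, went from 1523, 1469.5 and 1578 CPM to 988, 1026 and 1034 CPM (log2 fold change -0.58, SE 0.07, adjusted p = 7.65e-07), and PSMB10, an immunoproteasome subunit, fell 2.53-fold. Class II genes fell further: of 12 tested 11 were lower, with a median of -1.62. HLA-DRA, the DR alpha chain, went from 387, 387 and 413 CPM to 88.7, 89.1 and 72.1 CPM (log2 fold change -2.25, SE 0.16, adjusted p = 8.97e-08), and CD74, the invariant chain, from 951, 936 and 1051 CPM to 549.8, 517 and 489 CPM. CIITA, the coactivator that class II genes need, fell 1.90-fold. HLA-DOB, at 0.238, 0.245 and 0.444 CPM in droplets and 0.637, 0.616 and 0.785 CPM at 24 h, was the class II gene that rose, and it did not pass without droplet replicate 1 or 2. Reads of HLA genes can be split among near-identical paralogs.

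**Figure D4:**
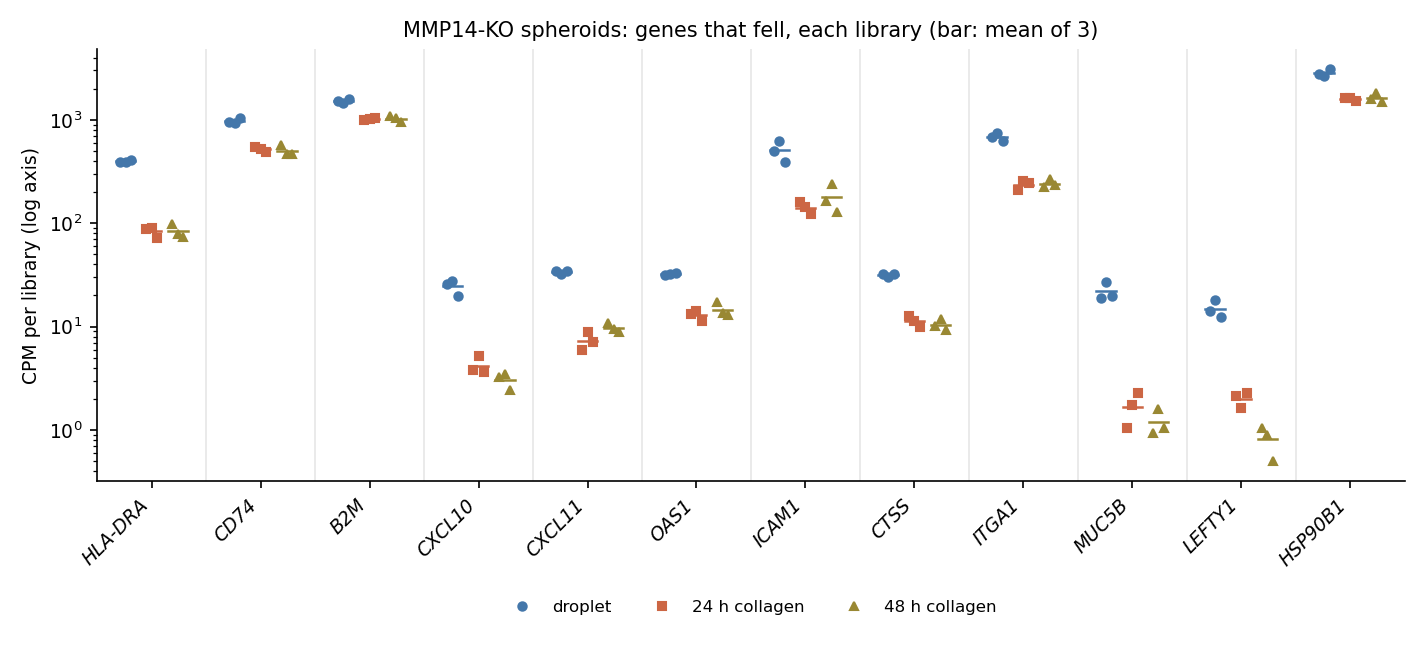
CPM (log axis) of 12 genes that fell, in each MMP14-KO library from droplets, 24 h and 48 h in collagen; points are libraries and bars the mean of 3. The HLA-DRA libraries sit at 387 to 413 CPM in droplets and at 72.1 to 89.1 CPM at 24 h, and at 48 h at 74.0 to 97.4 CPM, while for LEFTY1 each 48 h library lies under each 24 h library.

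NF-kB pathway genes fell less uniformly, with 10 of 23 lower and 1 higher and a median log2 fold change of -0.23. ICAM1, an adhesion receptor for leukocytes, went from 503, 627 and 389 CPM to 159, 142 and 124 CPM (log2 fold change -1.84, SE 0.34, adjusted p = 6.12e-04), and SOD2, the mitochondrial superoxide dismutase, from 560.2, 669 and 443 CPM to 219, 191 and 162 CPM (log2 fold change -1.55, SE 0.28, adjusted p = 5.40e-04). NFKBIZ, an inducible IkB protein, was the member that rose, 1.97-fold. The chemokine CXCL8 was at 564, 716 and 392 CPM in droplets and 296, 291 and 275 CPM at 24 h, and although the groups did not overlap the difference did not pass (adjusted p = 0.0600). In droplets replicate 2 was the highest and replicate 3 the lowest library for ICAM1, SOD2, CXCL8 and SERPINE2. LTB, a membrane-bound cytokine of the TNF family, fell with the same spread, from 5.95, 9.14 and 2.97 CPM to 1.00, 0.654 and 0.578 CPM.

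Unfolded protein response genes fell and most heat shock genes rose. Of 28 unfolded protein response genes 27 fell, with a median log2 fold change of -0.44, and DERL3, at 0.239 to 0.634 CPM, did not pass. HSP90B1, an endoplasmic reticulum chaperone, went from 2754, 2647 and 3109.9 CPM to 1614, 1627 and 1519 CPM (log2 fold change -0.84, SE 0.09, adjusted p = 1.56e-07), and PDIA4, a disulfide isomerase, from 435, 439 and 458 CPM to 253, 238 and 228 CPM. Of 24 heat shock genes 17 rose, and BAG3 and DNAJA1 fell. HSP90AA1, the inducible cytosolic HSP90, rose 1.51-fold and HSPD1, the mitochondrial chaperonin, which lies against HSPE1, 1.49-fold. Of 36 ATF4 targets 20 rose and 7 fell (4 without 24 h replicate 1). PSAT1, an enzyme of serine synthesis, went from 35.6, 31.1 and 34.1 CPM to 89.0, 91.6 and 94.7 CPM (log2 fold change 1.45, SE 0.06, adjusted p = 1.16e-13), and ASNS, asparagine synthetase, rose 2.25-fold. GDF15, a stress cytokine that ATF4 can induce, fell from 51.5, 62.6 and 36.2 CPM to 18.2, 14.3 and 12.4 CPM.

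Other genes among the 15 largest falls, again in none of these groups, included secreted and surface proteins. MUC5B, a gel-forming mucin, went from 18.8, 26.9 and 19.9 CPM to 1.05, 1.73 and 2.27 CPM (log2 fold change -3.68, SE 0.26, adjusted p = 3.55e-09). LEFTY1, an inhibitor of nodal signalling, fell from 14.3, 18.2 and 12.3 CPM to 2.14, 1.62 and 2.27 CPM, and LGR5, a receptor for R-spondins that lies against TSPAN8, from 11.7, 12 and 11.6 CPM to 1.41, 2.77 and 3.26 CPM. FCGBP, a mucus-associated protein, fell 5.35-fold and S100P, a small calcium-binding protein, 5.58-fold. VCAM1, an adhesion receptor, fell 5.22-fold, and ICOSLG, a ligand for a T-cell costimulatory receptor, 6.60-fold. SLC43A2, an amino acid transporter, fell 5.87-fold and APOC1, an apolipoprotein, 5.38-fold. In the list of oxidative stress genes, where 16 of 29 fell and 3 rose, FTH1, the ferritin heavy chain, which lies against BEST1, went from 1415, 1482 and 1269 CPM to 794, 707 and 721 CPM.

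The same day in collagen was then compared in Wildtype spheroids, which share no library with the MMP14-KO comparison. There 9622 genes passed (56.5%), of which 4742 rose (27.8%) and 4880 fell (28.7%). Of the genes that rose in MMP14-KO spheroids 77.2% also rose in Wildtype, which is 70.6% of those that rose in Wildtype, and 35 fell there. Of those that fell 79.2% also fell in Wildtype, 70.9% of the Wildtype list, and 18 rose there. Across the 17030 genes, which are not independent, the 2 sets of log2 fold changes had a Pearson r of 0.683, given as a description. FOSB changed by 8.26 on the log2 scale in Wildtype, EGR1 by 4.15, CXCL10 by -2.84 and HLA-DRA by -2.07, and for none of these 4 did the difference between the genotypes pass (adjusted p between 0.387 for EGR1 and 0.835 for FOSB).

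**Figure D5:**
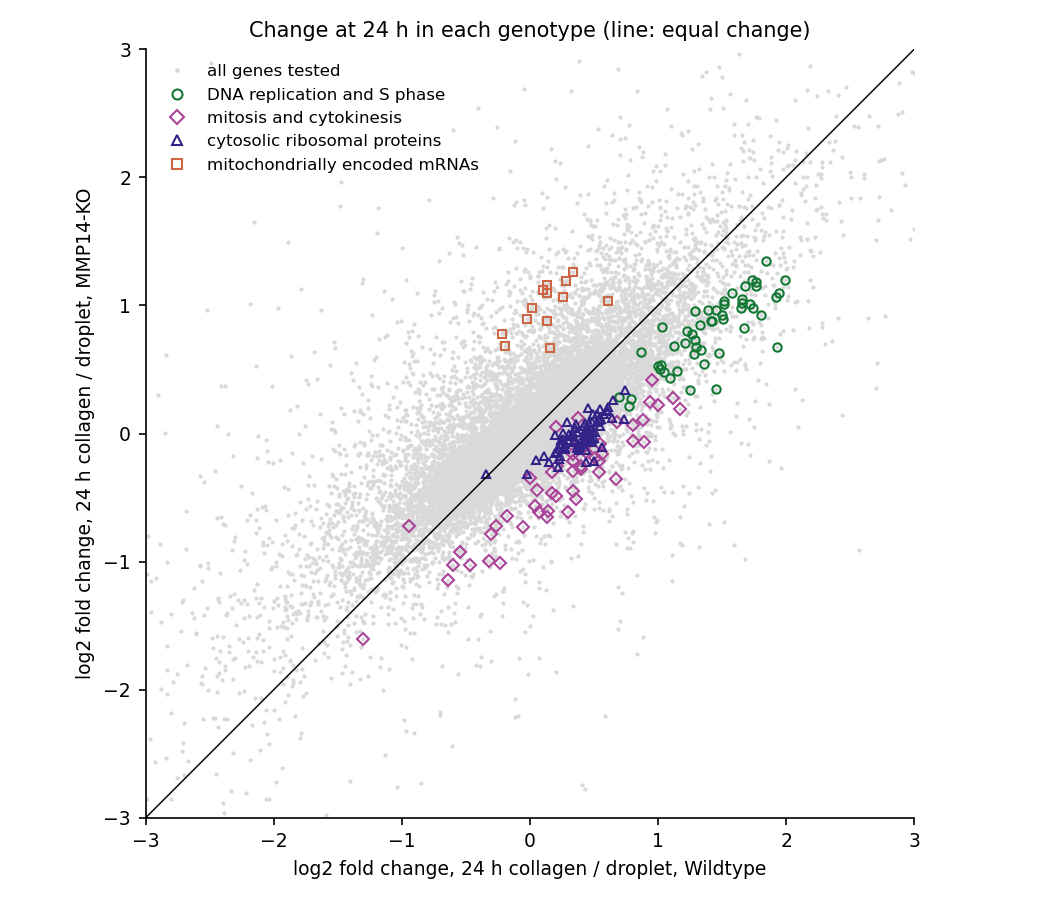
Log2 fold change at 24 h against droplets in MMP14-KO spheroids (vertical axis) and in Wildtype spheroids (horizontal axis) for all genes tested (grey dots) and 4 gene groups, with a line of equal change; 189 genes beyond 3 log2 units on either axis are not drawn. The 50 replication genes lie below the line, and the 13 mitochondrially encoded mRNAs above it.

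The difference between the responses was tested directly. It passed for 1262 genes (7.41%), with 565 in which the MMP14-KO change was the more positive (3.32%) and 697 in which it was the more negative (4.09%), and 106 (0.622%) and 26 (0.153%) of these differed by 2-fold or more. When libraries were scaled by their totals alone the split was 733 and 509, so the balance of directions depends on the scaling. The count also depends on single libraries. It was 473 and 624 without Wildtype droplet replicates 1 and 2, 1953, 601 and 414 without Wildtype 24 h replicates 1, 2 and 3, 619 without MMP14-KO droplet replicate 3, and 639 and 738 without MMP14-KO 24 h replicates 1 and 2. The 20 genes with the smallest p named by rule passed in each of the 20 alternatives, which was likely beforehand because these reuse the data that chose them.

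Replication genes rose less in MMP14-KO than in Wildtype spheroids: the difference was negative in all 50 and passed in 38, with a median of -0.56 on the log2 scale. In Wildtype all 50 rose, with a median of 1.42. CCNE2, a cyclin of S-phase entry, rose by 0.67 in MMP14-KO and by 1.93 in Wildtype (difference -1.25, adjusted p = 9.44e-04), and it lies against INTS8 and NDUFAF6. RRM2, the small subunit of ribonucleotide reductase, changed by 0.35 and 1.45 (difference -1.10, adjusted p = 0.00865). The number passing was 15 without Wildtype 24 h replicate 3, the lowest of the alternatives, and 31 when libraries were scaled by their totals. Of the 52 mitosis genes 24 rose and 7 fell in Wildtype, with a median of 0.33, against a median of -0.30 in MMP14-KO. Without Wildtype droplet replicate 1, 15 rose in Wildtype. The difference passed in 14 of the 52, with TOP2A, the topoisomerase of dividing cells, at -0.91. It passed in 2 without Wildtype droplet replicate 1 and in up to 49 under other settings.

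Ribosomal protein genes rose in Wildtype, 69 of 74 with a median log2 fold change of 0.42, and the difference passed as lower in MMP14-KO for 56 of 74, with a median of -0.41. RPS2, a protein of the small subunit, changed by 0.34 in MMP14-KO and 0.75 in Wildtype (adjusted p = 0.0230). Without Wildtype 24 h replicate 3 the difference passed for 30 of them. The mitochondrially encoded mRNAs showed the opposite: 1 of 13 rose in Wildtype, and the difference was positive in all 13, from 0.43 for MT-ATP8 to 1.03 for MT-CO2. It passed for MT-CO1 alone (adjusted p = 0.0492), and for 0 to 13 of them over the alternatives. The mitochondrial share of counts in Wildtype droplets was 2.10 to 2.65%, above each MMP14-KO droplet library. MT-CO1 was at 5733 CPM on average in Wildtype droplets and 5803 CPM at 24 h.

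Among single genes, CCN2 rose less in MMP14-KO, by 2.48 against 3.37 on the log2 scale (difference -0.89, adjusted p = 4.38e-04), with a 24 h mean of 881 CPM in Wildtype. It was 1 of 10 YAP-TAZ targets whose change was lower in MMP14-KO, against 2 that were higher, and of the 10, AXL differed by -0.31 and FJX1 by -0.49. The number of lower ones was 1 without Wildtype 24 h replicate 3 and reached 13 under other settings. JUN rose by 0.83 against 1.40, HBEGF, an EGF receptor ligand, by 1.26 against 1.70, and INHBA, the activin A subunit, by 0.61 against 1.50. INHBA reached a 24 h mean of 28.4 CPM in MMP14-KO and 28.0 CPM in Wildtype, from droplet means of 18.6 and 9.91 CPM. G0S2, an inhibitor of lipolysis, rose by 0.65 against 1.81. Its droplet mean was 91.4 CPM in MMP14-KO and 50.9 CPM in Wildtype, and its 24 h mean 143 and 179.5 CPM. MT2A, a metallothionein, overlapped between droplet and 24 h in MMP14-KO (0.10) and rose by 0.93 in Wildtype. Genes in which the MMP14-KO change was the more positive included PDGFRB, a receptor for PDGF, at 0.10 against -0.96, and TACC2, a centrosome-associated protein, which fell by 0.59 against 1.33. ADAMTS1 rose more in MMP14-KO, by 2.09 against 0.98 (adjusted p = 0.00678), from a lower droplet level than the Wildtype mean of 108 CPM. Of 54 interferon-stimulated genes the difference passed for 12, each with the smaller fall or a rise in MMP14-KO, such as OAS1 at -1.32 against -2.26, and for 8 to 19 with 1 library left out.

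A second day in collagen, after which the spheroids were digested in the same way, showed which 24 h levels held. This comparison shares the 24 h libraries with the first. Between 24 h and 48 h 648 genes changed (3.81%), of which 353 rose (2.07%) and 295 fell (1.73%), or 287 and 362 when scaled by library totals. The 648 was 373, 324 and 342 without 24 h replicates 1, 2 and 3, and 400 without 48 h replicate 3. Of the 11 AP-1 subunits 4 fell, JUNB by 0.63 on the log2 scale and the 3 that follow, and 7 did not pass, among them JUN (-0.11, adjusted p = 0.383) and FOSL1 (0.07, adjusted p = 0.699). ATF3 was at 52.0, 41.0 and 47.9 CPM (log2 fold change against 24 h -2.35, adjusted p = 5.64e-08), FOSB at 123, 124 and 112 CPM (-1.66, adjusted p = 5.64e-08) and FOS at 457, 473 and 386 CPM (-0.95, adjusted p = 1.72e-05). None of these 3 returned to its droplet range. Of the 36 immediate-early genes 18 fell and 1 rose.

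CCN1 was at 1156, 1012 and 1305 CPM at 48 h, and its change from 24 h did not pass (adjusted p = 0.436). CCN2 fell by 0.30 on the log2 scale, and of the 30 YAP-TAZ targets it was the 1 that passed, though not without 24 h replicate 2. Mitosis genes rose: 47 of 52 passed, with a median log2 fold change of 0.87. PLK1 was at 87.6, 73.3 and 94.5 CPM at 48 h, above each droplet library (log2 fold change against 24 h 1.85, adjusted p = 1.14e-05), and KIF20A and CCNB1 rose by 1.86 and 1.72. Replication genes were lower in 13 of 50 (20 with a replicate block, 28 with no filter on low counts and 9 without 24 h replicate 3), with E2F1 at 58.5, 48.0 and 59.2 CPM, still above its droplet values. Of the interferon-stimulated genes 1 rose and 1 fell, and of the class II genes 1 rose. HLA-DRA was at 97.4, 78.1 and 74.0 CPM, close to its 24 h level.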

How the data were processed

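The deposited table holds an expected count per gene and library that, per the submitters' processing notes, came from reads handled with cutadapt 2.3, STAR 2.7.8a and RSEM 1.3.3 on GRCh38; DESeq2 1.42.0 is also listed. Every deposited value was already whole. No label or header names the strand setting or annotation release. 4 reporter rows, with a total count of 0, were left out. Groups follow the genotype and treatment labels. In R 4.3.3 with edgeR 4.0.16, genes were filtered with filterByExpr (minimum count 10), libraries scaled by TMM, and all 18 libraries entered 1 robust quasi-likelihood fit with the 6 groups as terms (residual degrees of freedom 12). Benjamini-Hochberg adjustment ran over all genes, with a threshold of 0.05. The SE is the absolute log2 fold change divided by the square root of the F statistic. CPM use the TMM factors. Genes overlapping on the genome were found in GENCODE 29, and promoters are RefSeq windows of GRCh38.p14, the first listed where a gene has several. Repeated fits used other scalings, filters, DESeq2, a replicate block and leave-outs. On simulated counts for this comparison (16850 genes fitted), 50 of 67 genes changed 1.5-fold, 64 of 67 changed 2-fold and 66 of 66 changed 4-fold were recovered, and 7 of 187 calls were false. Only these genes were changed, and all were drawn from genes with a mean of at least 50 counts. In the real comparison 51.1% of genes passed, so the simulated rates need not hold there or for genes with lower counts.

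MMP14 was always named. By rule the text draws on the 15 genes with the largest log2 rises and the 15 with the largest falls that passed, reached 5 CPM on average in the higher group and did not overlap, the 10 smallest adjusted p in each direction of the difference between genotypes, the 5 largest changes each way from 24 h to 48 h, and up to 6 members per list plus its 2 highest. Exceptions within lists, MT-ATP8, MYC and CIITA were named after their values were seen. The members and lists were chosen with earlier results of these data known. Some genes that the rule takes are not reported here.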

Additional observations from a re-analysis of the deposited data

Results flagged for a closer look

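The change at 24 h differed between MMP14-KO and Wildtype spheroids in 1262 genes, by edgeR's quasi-likelihood test of the difference itself. Among the genes with the smallest p, the log2 change was more positive in MMP14-KO for TACC2 by 0.742, TRIML2 by 1.008, SLC38A4 by 0.789, PDGFRB by 1.064, BMF by 1.008, BMP4 by 0.791, SCP2 by 0.514, MINDY1 by 0.903, STEAP3 by 0.501 and SLC6A9 by 1.095. In BMF, a BH3-only apoptosis gene, levels were 57.3, 61.7 and 58.1 CPM in MMP14-KO droplets and 49.0, 48.8 and 49.2 CPM at 24 h, while the Wildtype means were 75.1 and 31.1 CPM. BMP4, a secreted growth factor, rose by 0.24 in MMP14-KO and fell by 0.55 on the log2 scale in Wildtype. TRIML2 likewise rose by 0.67 in MMP14-KO and fell by 0.34 in Wildtype.

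The difference was negative for G0S2 (-1.17), FZD8 (-0.908), CCN2 (-0.891), MT2A (-0.833), CDCA7L (-0.712), CCNE2 (-1.255), JUN (-0.571), INHBA (-0.881) and HBEGF (-0.44). FZD8, a Wnt receptor, went from 33.3, 34.2 and 33.7 CPM to 20.6, 19.9 and 17.6 CPM in MMP14-KO and from a mean of 11.1 to 11.9 CPM in Wildtype. Each of the named genes passed in all 20 alternatives, with a largest adjusted p of 0.00934, for INHBA. They were chosen for the smallest p in the same data that the alternatives reuse, so passing was likely beforehand.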

How the results depend on the processing

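For 24 h against droplets, in either genotype, the counts of changed genes stayed within 1.5 times under each of the scalings, filters, tools and left-out libraries tried. The difference between genotypes (1262 genes) rose to 2046 with no filter on low counts and lay between 414 and 1953 with 1 library left out. At 2-fold or more its count went from 132 to 307 with no filter and lay between 57 and 229 with 1 library left out. The count from 24 h to 48 h (648 genes) rose to 1101 with no filter, lay between 324 and 854 with 1 library left out, and at 2-fold or more went from 70 to 155 with no filter. Deviations of same-numbered MMP14-KO droplet and 24 h libraries correlated at 0, 0.011 and 0.007, so replicate numbers showed no pairing there. For other pairs of groups same-numbered libraries reached 0.137, in replicate 3 of Wildtype and MMP14-KO droplets, and different-numbered ones 0.114. With a replicate block 8840 genes changed at 24 h instead of 8705, 1782 differed between genotypes and 809 changed from 24 h to 48 h. For 430 named genes 6016 fold changes were recomputed: 5885 kept their side of the threshold, 91 lost it, 40 gained it and 0 reversed. The causes were not tested.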
